A study of Schizosaccharomyces pombe with 4 samples.

Results

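The 10 genes described here encode the nuclease machinery of fission yeast RNA decay and the factors that feed it. They are dis3, rrp6 and rrp41 of the RNA exosome, the helicases mtr4 and mtl1, the zinc-finger protein gene red1, the poly(A) polymerase gene cid14, the 5′-3′ exonuclease genes exo2 and dhp1, and the RNase III gene pac1. The genes were chosen by function, by their systematic identifiers, and not by a threshold on their values. They are 10 of the 7022 transcripts in the table, and the 10 introns annotated inside 6 of them are 10 of its 5361 introns. All 10 transcripts and 6 of the 10 introns passed the filter on low counts, which asked for at least 10 counts in at least 2 libraries.

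Strand-specific RNA sequencing of rRNA-depleted total RNA was done on 2 cultures of a dbr1Δ strain and 2 cultures of wild-type S. pombe. The dbr1Δ cells came from a single strain of the Bioneer deletion collection, which lacks the debranching enzyme gene dbr1 and grows slowly, and the wild type was ED668. Both strains carry h+ ade6-M216 ura4-D18 leu1-32, and all cultures grew in YES, a rich medium, at 32 °C to an OD600 of 0.4. The comparison is dbr1Δ over wild type, and a change in a transcript or intron cannot be told apart from a change that goes with the slower growth of the mutant.

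The exosome degrades and trims RNA from the 3′ end. In the nucleus its exonucleases Dis3 and Rrp6 receive substrates from helicases of the Mtr4 type, which work with the poly(A) polymerase Cid14 in the TRAMP complex or, as Mtl1, with Red1 in the complex that removes meiotic mRNAs from growing cells. Decay from the 5′ end is carried out by Exo2, the fission yeast counterpart of Xrn1, in the cytoplasm and by Dhp1, the counterpart of Rat1, in the nucleus. Dbr1 opens the lariat that splicing leaves behind, after which the linear intron is open to these exonucleases.

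Total counts were 24205354 and 19780858 in dbr1Δ replicates 1 and 2, and 25169220 and 36062720 in wild-type replicates 1 and 2. Introns held 8.87% and 8.51% of the dbr1Δ counts, against 1.96% and 2.03% of the wild-type counts. The deleted gene dbr1 had 207 and 164 counts in the dbr1Δ libraries and 1535 and 1799 counts in the wild-type libraries, low in both libraries labelled as the mutant. The gene exo2 lies 22729 bases from dbr1 on chromosome I. Levels are normalized counts (CPM), scaled to a common library size over transcripts and introns together. With that scaling the median transcript had a log2 fold change of -0.18, and with scaling from transcripts alone it had -0.01. Fold changes below 0 are therefore also given relative to the median transcript or with the scaling from transcripts. A log2 fold change is given ± the standard error of the fit. In bulk RNA, fewer cells with a transcript and less of it per cell cannot be told apart.

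Shown here, on the strand of the transcript, are the 3 introns that rose, the rrp41 intron that stood apart from its length class, the exo2 intron with a lower splicing efficiency and the red1 intron with more boundary than junction reads. Capitals mark the first 6 bases, the last match to a branch-site pentamer and the closing AG. They were read from the RefSeq genome ASM294v3 at the coordinates of the deposited table, whose build is EF1. On chromosomes I and III the table ends at the length of this genome, and 99.7% of 5303 nuclear introns begin with GT and end with AG there.
red1 intron 2 (int_2300, chrI:5073189-5073388, minus strand): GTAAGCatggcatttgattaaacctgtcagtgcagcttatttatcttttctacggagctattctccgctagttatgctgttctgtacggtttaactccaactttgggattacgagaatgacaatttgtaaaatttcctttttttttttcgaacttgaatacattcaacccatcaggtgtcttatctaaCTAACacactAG
red1 intron 1 (int_2301, chrI:5073450-5073727, minus strand): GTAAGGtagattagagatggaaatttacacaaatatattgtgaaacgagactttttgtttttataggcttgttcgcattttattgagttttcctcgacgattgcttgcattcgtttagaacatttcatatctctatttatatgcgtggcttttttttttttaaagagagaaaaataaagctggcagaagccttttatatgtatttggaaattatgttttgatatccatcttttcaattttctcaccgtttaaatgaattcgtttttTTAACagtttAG
red1 intron 3 (int_2299, chrI:5071418-5071461, minus strand): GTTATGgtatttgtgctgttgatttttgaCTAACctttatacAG
dis3 intron (int_3276, chrII:3971162-3971325, plus strand): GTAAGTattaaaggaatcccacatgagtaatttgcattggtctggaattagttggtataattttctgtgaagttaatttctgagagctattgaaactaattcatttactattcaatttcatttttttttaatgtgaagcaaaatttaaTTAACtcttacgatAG
rrp41 intron 2 (int_663, chrI:3163312-3163422, plus strand): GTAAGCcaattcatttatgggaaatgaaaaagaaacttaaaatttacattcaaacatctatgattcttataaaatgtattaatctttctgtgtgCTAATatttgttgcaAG
exo2 intron 2 (int_386, chrI:1778670-1778719, plus strand): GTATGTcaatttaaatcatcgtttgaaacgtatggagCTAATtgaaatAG
The pentamer searched had C or T, then T, then A or G, then A, then C or T, of which CTAAC is one form. It was searched on the transcript's strand only and within the last 40 bases, with overlapping matches allowed. All 10 introns held at least 1 match, as did 95.1% of the 4984 nuclear introns of at least 40 bases, and CTAAC alone was found in 44.7%. The opening GTAAG of red1 introns 1 and 2, of the dis3 intron and of rrp41 intron 2 is shared with 41.0% of these introns. The opening GTTAT of red1 intron 3 occurs in 0.0803%. Of the 10 introns, 9 lie between coding exons in the RefSeq annotation, and the intron listed for mtr4 (int_1428, chrI:1348507-1348569) lies upstream of the coding sequence and is not annotated there.

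Among the transcripts, the exosome genes fell together in dbr1Δ, with rrp41 falling the most of all 10 genes. By edgeR's quasi-likelihood test at a threshold of 0.05 on the adjusted p, 9 of the 10 transcripts were lower in dbr1Δ and 0 were higher, where the shares among all 6401 tested transcripts were 42.6% lower and 17.8% higher. At the study's cutoff, which also asks for more than a 2-fold difference, 1 of 10 was lower and 0 were higher, against 2.81% and 6.69% of all transcripts. Scaling from transcripts left 5 of 10 lower and 0 higher without the fold cutoff (27.5% and 26.8% of all), and 1 of 10 was lower and 0 higher with it (1.42% and 8.36% of all). With the joint scaling, both dbr1Δ libraries lay below both wild-type libraries in all 10 genes, as in 55.1% of all tested transcripts. With the scaling from transcripts that share was 40.3%, and it did not hold for all 10 genes, since cid14 had a log2 fold change of 0.02 there. The median log2 fold change of the 10 was -0.44, and 9 of them lay below the median of all tested transcripts. The 10 genes all encode proteins, whereas the shares above take in noncoding RNAs too. Of the 4963 tested nuclear protein-coding transcripts, 2498 were lower and 641 higher under the joint scaling, and 1609 and 1105 under the other. Their median under the joint scaling was -0.242, so mtl1 at -0.231 lay just above it and dhp1 at -0.247 just below.

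The gene rrp41 (SPAC3G9.10c, chromosome I, 3163136 to 3164354) encodes a subunit of the exosome's barrel-shaped core. It stood at 27.9 and 31.7 CPM in the dbr1Δ libraries, against 71.9 and 68.7 CPM in the wild-type libraries. The higher dbr1Δ library was still under the lower wild-type library by more than the replicates of either strain differed. The mean was 29.8 ± 2.7 CPM in dbr1Δ and 70.3 ± 2.3 CPM in wild type (SD, n = 2 each), 2.36-fold higher in wild type. The log2 fold change was -1.24 ± 0.08 (adjusted p = 6.58e-06 by edgeR), which places rrp41 at the 1.36th percentile of all tested transcripts. With the scaling from transcripts it was -1.07 (adjusted p = 1.52e-05 by edgeR), still past the cutoff.

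The gene rrp6 (SPAC1F3.01, chromosome I, 610842 to 613338) encodes the nuclear 3′-5′ exonuclease of the exosome. Its level was 135 and 136 CPM in dbr1Δ, against 234 and 239 CPM in wild type, so replicates of a strain were nearly equal and the strains stood well apart. The log2 fold change was -0.80 ± 0.07 (adjusted p = 2.53e-05 by edgeR). The gene dis3 (SPBC26H8.10, chromosome II, 3970898 to 3974218) encodes the subunit that gives the core its exonuclease and endonuclease activity. Its level was 285 and 254 CPM in dbr1Δ, against 439 and 431 CPM in wild type. The dbr1Δ replicates differed more than the wild-type replicates, without reaching the wild-type level. On the log2 scale dis3 changed by -0.69 ± 0.08 (adjusted p = 0.000174 by edgeR). Relative to the median transcript, rrp6 lay at -0.62 and dis3 at -0.51, and both stayed lower with the scaling from transcripts, at -0.63 and -0.52.

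**Figure D1:**
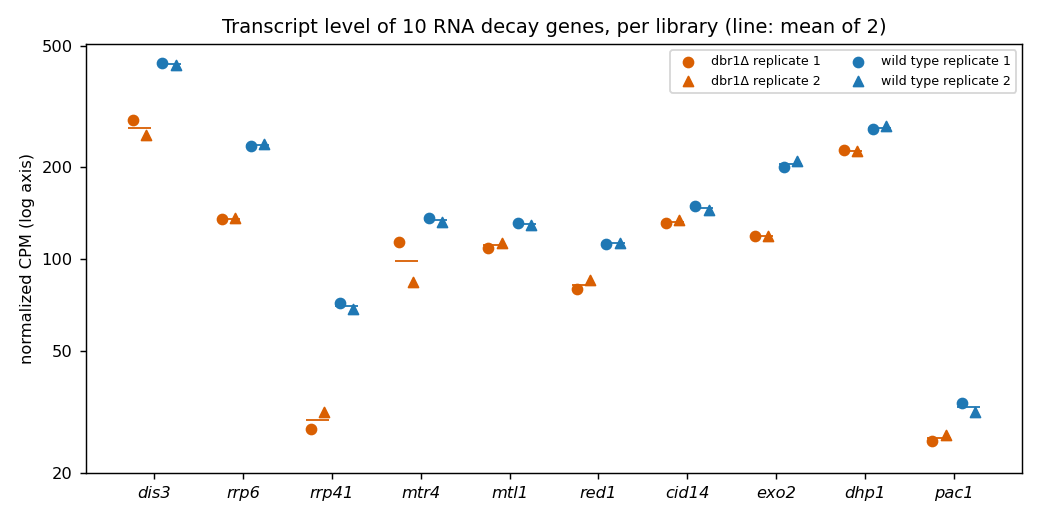
Normalized counts (CPM) of the 10 transcripts (log axis) in each library, dbr1Δ in orange left of wild type in blue, with circles for replicate 1, triangles for replicate 2 and a line at the mean of each strain's 2 libraries. In every gene both dbr1Δ libraries sit below both wild-type libraries, with the widest gap for rrp41 (27.9 and 31.7 CPM against 71.9 and 68.7 CPM) and a narrow one for cid14.

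The helicase genes and red1 were lower by less. Red1 is the scaffold that joins Mtl1 to the factors that recognise meiotic mRNAs, and its gene red1 (SPAC1006.03c, chromosome I, 5070931 to 5074055) stood at 79.9 and 85.3 CPM in dbr1Δ, against 112 and 113 CPM in wild type. The strains were apart and red1 changed by -0.45 ± 0.07 on the log2 scale (adjusted p = 0.000788 by edgeR), and it stayed lower at -0.28 with the scaling from transcripts (adjusted p = 0.01 by edgeR). The gene mtr4 (SPAC6F12.16c, chromosome I, 1344924 to 1348614), for the helicase of the TRAMP complex, varied most relative to its mean in dbr1Δ, at 114 and 84.2 CPM in dbr1Δ, against 136 and 132 CPM in wild type. The distance between its dbr1Δ replicates was larger than that from the higher one to wild type. For mtr4 the log2 fold change was -0.44 ± 0.13 (adjusted p = 0.0175 by edgeR), and the call was lost with the scaling from transcripts, at -0.26 (adjusted p = 0.117 by edgeR). Leaving out 1 library at a time moved it between -0.62 and -0.20.

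The gene mtl1 (SPAC17H9.02, chromosome I, 2004745 to 2008108), for the Mtr4-like helicase that works with Red1, stood at 109 and 113 CPM in dbr1Δ, against 132 and 129 CPM in wild type. The strains did not overlap, but the log2 fold change of -0.23 ± 0.07 (adjusted p = 0.0172 by edgeR) was close to that of the median transcript. With the scaling from transcripts it was -0.06 (adjusted p = 0.48 by edgeR). The gene cid14 (SPAC12G12.13c, chromosome I, 321764 to 324129) encodes the TRAMP poly(A) polymerase that tags nuclear RNA for decay. It had 131 and 134 CPM in dbr1Δ, against 150 and 145 CPM in wild type, and was the only gene of the 10 that did not pass the test. Its log2 fold change was -0.15 ± 0.07 (adjusted p = 0.0867 by edgeR), and 0.02 with the scaling from transcripts.

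Both 5′-3′ exonuclease genes were lower with the joint scaling. The cytoplasmic enzyme's gene exo2 (SPAC17A5.14, chromosome I, 1778445 to 1782740) stood at 118.7 and 119.5 CPM in dbr1Δ, against 200 and 209 CPM in wild type. Replicates lay close together in both strains, and the log2 fold change was -0.78 ± 0.07 (adjusted p = 3.28e-05 by edgeR), or -0.61 with the scaling from transcripts. The nuclear enzyme's gene dhp1 (SPAC26A3.12c, chromosome I, 3356144 to 3361083), whose product also acts in transcription termination, stood at 228 and 226 CPM in dbr1Δ, against 266 and 272 CPM in wild type. The strains differed by -0.25 ± 0.07 on the log2 scale (adjusted p = 0.0141 by edgeR), and the call was lost with the scaling from transcripts, at -0.07 (adjusted p = 0.388 by edgeR). The difference between the changes of the 2 genes was not tested.

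The gene pac1 (SPBC119.11c, chromosome II, 737503 to 738906) encodes the RNase III that cleaves double-stranded stems in precursors of ribosomal, small nuclear and small nucleolar RNAs. It stood at 25.5 and 26.7 CPM in dbr1Δ, against 33.9 and 31.6 CPM in wild type. The fitted log2 fold change was -0.33 ± 0.09 (adjusted p = 0.0125 by edgeR), and -0.15 with the scaling from transcripts (adjusted p = 0.162 by edgeR). The genes thus fell into those whose call did not depend on the setting and those whose call did. Over 13 alternative settings, at the threshold on the adjusted p alone, rrp41, rrp6, dis3, exo2 and red1 were called lower in all 13, pac1 in 8, mtr4 in 7, mtl1 in 6, dhp1 in 5 and cid14 in 0. Shares among all transcripts are given here only for the joint scaling and the scaling from transcripts. The counts over settings thus show which calls held, not an excess over all transcripts. With 1 library left out, the log2 fold change ran from -1.30 to -1.10 for rrp41 and -0.82 to -0.75 for rrp6. It ran from -0.73 to -0.58 for dis3, -0.82 to -0.73 for exo2 and -0.46 to -0.36 for red1. For pac1, mtl1, dhp1 and cid14 the ranges were -0.37 to -0.25, -0.23 to -0.16, -0.27 to -0.21 and -0.16 to -0.09.

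**Figure D2:**
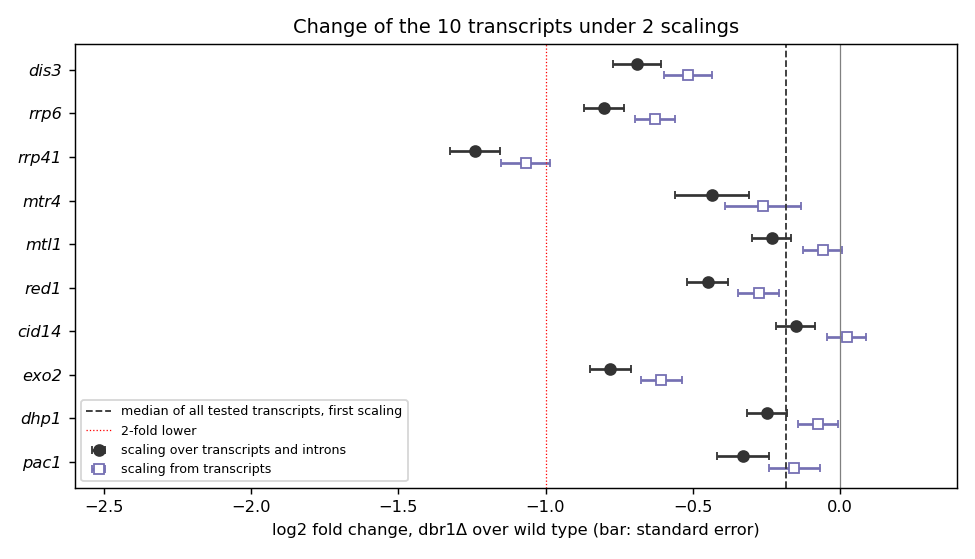
Log2 fold change, dbr1Δ over wild type, of the 10 transcripts with the standard error of the fit as bars, for the scaling over transcripts and introns (filled circles) and the scaling from transcripts (open squares). The dashed line marks the median tested transcript at -0.18 under the first scaling and the dotted line a 2-fold decrease, which only rrp41 passes, at -1.24 and -1.07.

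Compared with each other as CPM per kilobase of exon, the genes kept dis3 at the top and pac1 at the bottom in both strains. In dbr1Δ the mean was 85.4 for dis3, 56.0 for cid14, 55.6 for rrp6, 45.9 for dhp1, 33.0 for mtl1, 31.7 for red1, 28.3 for exo2, 28.1 for rrp41, 27.3 for mtr4 and 18.6 for pac1. The libraries of cid14 and rrp6 overlapped in dbr1Δ, as did those of mtl1 and red1, and exo2, rrp41 and mtr4 could not be ordered. The higher dbr1Δ library of mtr4, at 31.3, also lay above the lower one of red1, at 30.7. In wild type the mean was 137.7 for dis3, 96.9 for rrp6, 66.3 for rrp41, 62.2 for cid14, 54.5 for dhp1, 48.6 for exo2, 43.3 for red1, 38.8 for mtl1, 36.9 for mtr4 and 23.3 for pac1. No neighbours in the wild-type order overlapped. Per length, rrp41 thus held rank 3 in wild type. In dbr1Δ its mean held rank 8, within ranks 7 to 9, which could not be ordered.

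The 6 genes with an intron in the deposited table, which are dis3, rrp6, rrp41, mtr4, red1 and exo2, had log2 fold changes between -1.24 and -0.44, with a median of -0.73. Of these, mtr4 at -0.44 counts by an intron that is absent from the RefSeq annotation and had no junction or boundary reads. The 4 without introns, which are mtl1, cid14, dhp1 and pac1, had values between -0.33 and -0.15, with a median of -0.24. The 2 ranges do not overlap, but the genes are few and the split was made after their values were known. Over all nuclear protein-coding transcripts the split made little difference, with a median of -0.25 for the 2457 with introns and -0.23 for the 2506 without. Transcript counts do not take in the intron reads, since red1 had 2006 transcript counts in dbr1Δ replicate 1 while its second intron alone had 4742.

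Some of these genes overlap annotated neighbours on the same or the opposite strand. The noncoding RNA SPNCRNA.735 runs antisense to mtr4 over 944 bases and had 196 and 155 counts in dbr1Δ, against 95 and 117 in wild type. It rose under the joint scaling, with a log2 fold change of 1.14 ± 0.16 (adjusted p = 0.000476 by edgeR). The paper reports that most transcripts increased in dbr1Δ were noncoding RNAs. The lower call of mtr4 was lost with the scaling from transcripts, and a link between SPNCRNA.735 and mtr4 was not tested. The noncoding RNA SPNCRNA.638 lies antisense within cid14 over 783 bases and had 22 and 16 counts in dbr1Δ, against 4 and 4 in wild type. Its log2 fold change was 2.62 ± 0.46 (adjusted p = 0.00147 by edgeR), but it passed the filter on low counts only with its dbr1Δ counts. It lies in a gene with 3702 and 5123 wild-type counts, so the reads of cid14 were not counted toward it. The protein-coding gene SPAC26A3.11 lies opposite dhp1 over 1528 bases and had a log2 fold change of -0.11 ± 0.08 (adjusted p = 0.268 by edgeR). With the scaling from transcripts it was 0.07. The other 5 genes on opposite strands overlap by 13 to 154 bases and none was higher, while asa1 at red1 (-0.32) and cnt6 at dhp1 (-0.27) were lower with the joint scaling and not with the scaling from transcripts. On the same strand, mtl1 shares 67 bases with cid16 and cid14 shares 62 bases with pfs2, and the authors' rule for such reads is not given in the sources used here.

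The introns of these genes split by length. The 3 longest rose in dbr1Δ, the least of them 23.1-fold, while none of the shorter ones passed the cutoff. At the study's cutoff, 3 of the 6 tested introns were higher and 0 were lower, where 53.0% of the 3117 tested introns were higher and 1.32% lower. The same 3 passed with the scaling from transcripts, where 57.1% were higher and 0.77% lower. An intron was counted by the reads inside it together with those that cross its 5′ boundary. Both red1 intron 1 (7 and 21 wild-type counts) and exo2 intron 2 (7 and 7) passed the filter on low counts only with their dbr1Δ counts. The filter can thus favour introns that are high in dbr1Δ, among these 6 and among all 3117.

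The second intron of red1 (int_2300, 200 bases) had 4737 and 3341 reads inside it in dbr1Δ, against 108 and 209 in wild type. In CPM, boundary reads included, it stood at 189 and 170 in dbr1Δ, against 4.48 and 5.93 in wild type. The log2 fold change was 5.08 ± 0.13 (adjusted p = 1.18e-08 by edgeR), a 33.9-fold difference and rank 387 of the 3117 tested introns. By mean CPM in dbr1Δ it ranked 109 of the 5361 introns. Per kilobase it held 30.8 and 25.9 times the signal of the red1 exons in the dbr1Δ libraries, against 0.52 and 0.683 times in the wild-type libraries. The intron thus lay far above its own mRNA in both dbr1Δ libraries and below it in both wild-type libraries, while the red1 transcript was lower in dbr1Δ. No other transcript of the table overlaps it.

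The first intron of red1 (int_2301, 278 bases) is longer but held far fewer reads, 262 and 241 inside it in dbr1Δ, against 5 and 4 in wild type. With its boundary reads, of which wild-type replicate 2 had 17 and the other libraries 2 to 6, the counts were 268 and 247 in dbr1Δ, against 7 and 21 in wild type. The log2 fold change was 4.63 ± 0.27 (adjusted p = 2.29e-06 by edgeR), a 24.8-fold difference, and without wild-type replicate 2 it was 5.34. Per kilobase it reached 1.25 and 1.37 times the red1 exons in dbr1Δ, against 0.0236 and 0.0491 times in wild type. On either side of the 61-base second coding exon of red1, intron 2 thus stood at 944 and 848 CPM per kilobase in the dbr1Δ libraries and intron 1 at 38.4 and 45.0.

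The intron of dis3 (int_3276, 164 bases) lies behind the first of its 2 coding exons. It had 522 and 443 reads inside it in dbr1Δ, against 14 and 40 in wild type. In CPM it stood at 20.9 and 22.6 in dbr1Δ, far above the 0.646 and 1.16 in wild type. The log2 fold change was 4.53 ± 0.22 (adjusted p = 6.23e-07 by edgeR), a 23.1-fold difference. Per kilobase the intron reached 1.41 and 1.71 times the dis3 exons in dbr1Δ, against 0.0283 and 0.0517 times in wild type. In their length classes, these 3 introns moved as most introns did. Of the tested introns of 150 to 199 bases 94.2% were called higher (median log2 fold change 4.66), and of those of 200 to 299 bases 94.8% (median 5.34).

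**Figure D3:**
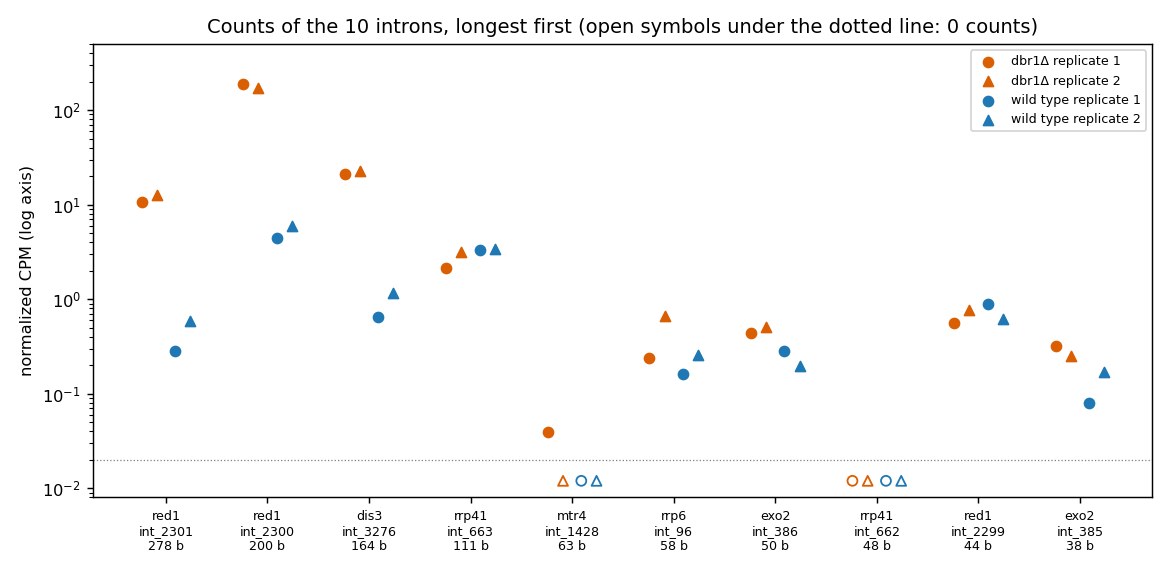
Normalized counts (CPM, log axis) of the 10 introns in each library, ordered from the longest to the shortest, dbr1Δ in orange left of wild type in blue. The 3 longest sit far higher in dbr1Δ, with 189 and 170 CPM against 4.48 and 5.93 CPM for red1 int_2300, whereas rrp41 int_663 and red1 int_2299 do not. Open symbols under the dotted line mark libraries with 0 counts.

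The second intron of rrp41 (int_663, 111 bases) did not follow its length class. It had 53 and 62 reads inside it in dbr1Δ, against 83 and 119 in wild type, or 2.15 and 3.19 CPM in dbr1Δ, against 3.35 and 3.36 CPM in wild type. The higher dbr1Δ library lay just under the wild-type libraries. The log2 fold change was -0.35 ± 0.23 (adjusted p = 0.224 by edgeR), so no difference was detected. Of 452 tested introns of 100 to 149 bases, 89.6% were called higher and the median was 3.39. Only 8 of the 452, or 1.77%, had a log2 fold change below 0, and 7 lay at or below int_663. Per kilobase the intron stood at 0.736 and 0.963 times the rrp41 exons in dbr1Δ, against 0.445 and 0.467 times in wild type. Both dbr1Δ ratios were higher, while the exon signal itself was lower in dbr1Δ. Its first 6 bases, GTAAGC, are the same as those of red1 intron 2, shown above. The A of its last pentamer lies 13 bases from the intron's end. That distance is 12 bases in the dis3 intron, which rose, and 8 bases in red1 introns 1 and 2.

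Of the short introns, red1 intron 3 (int_2299, 44 bases) had 14 and 15 counts in dbr1Δ, against 22 and 22 in wild type. This gave a log2 fold change of -0.18 ± 0.38 (adjusted p = 0.692 by edgeR). The second intron of exo2 (int_386, 50 bases) had 11 and 10 counts in dbr1Δ, against 7 and 7 in wild type, and a log2 fold change of 0.99 ± 0.47 (adjusted p = 0.104 by edgeR). Neither difference was detectable at this depth. In the length class of 30 to 59 bases, 25.8% of 1307 tested introns were called higher.

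The remaining 4 introns had too few counts for the test. The intron of rrp6 (int_96, 58 bases) had 6 and 13 counts in dbr1Δ, against 4 and 9 in wild type, and the first intron of exo2 (int_385, 38 bases) had 8 and 5 in dbr1Δ, against 2 and 6 in wild type. In CPM the strains overlapped for the rrp6 intron, at 0.239 and 0.659 in dbr1Δ, against 0.162 and 0.254 in wild type. They did not for the exo2 intron, at 0.319 and 0.254 in dbr1Δ, against 0.0808 and 0.169 in wild type, on 2 to 8 counts a library. The first intron of rrp41 (int_662, 48 bases) had 0 counts in every library, which allows up to 3 counts a library, or 0.119 and 0.152 CPM in dbr1Δ, against 0.121 and 0.0847 CPM in wild type. The intron listed for mtr4 had 1 count in dbr1Δ replicate 1 and 0 elsewhere, and neither junction nor boundary reads in any library, so its use as an intron was not seen here.

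**Figure D4:**
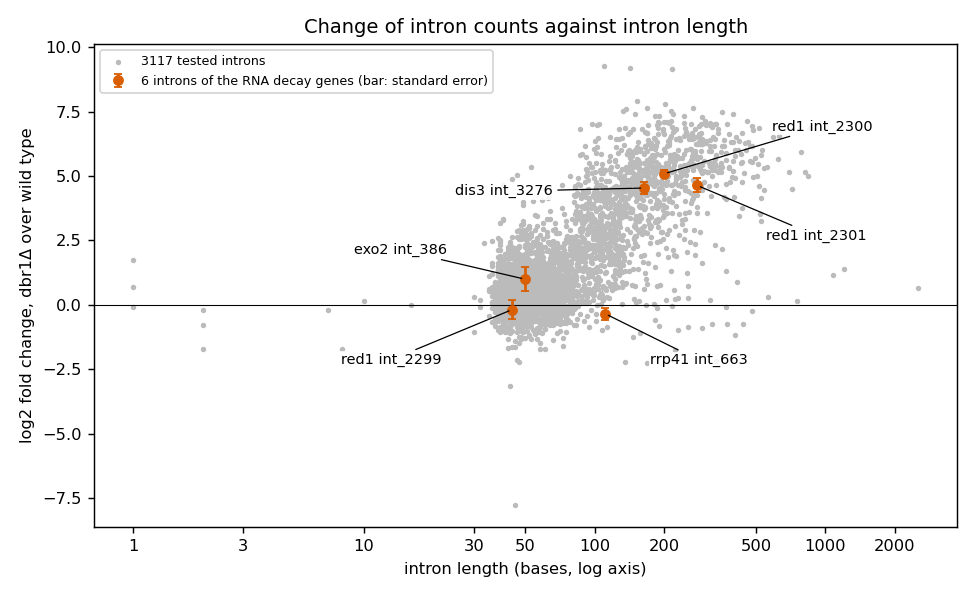
Log2 fold change of counts, dbr1Δ over wild type, against intron length in bases (log axis) for the 3117 tested introns (grey) and the 6 tested introns of these genes (orange, with the standard error as bars). The introns of red1 and dis3 of 164 bases or more lie with the long introns, at 4.53 to 5.08, whereas rrp41 int_663 at -0.35 lies below nearly all introns of its length.

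Splicing efficiency (SE) asks about the same introns without reads from inside them. It is log2 of the exon-exon junction reads plus 1 over the 5′ boundary reads plus 1. Each intron was tested by an exact Cochran-Mantel-Haenszel test on those reads, with replicate number as strata. Adjustment was over the 4096 introns with at least 10 such reads in each strain. The Cochran-Mantel-Haenszel test counts reads as independent, so edgeR's interaction between read class and strain, which uses the spread between libraries, is given beside it. Of the 9 introns that could be tested, 1 had a lower SE in dbr1Δ at the threshold of 0.05, where 20.4% of all 4096 did. The difference was below 0 in 7 of the 9, against 86.3% of all, and its median was -1.24, against -1.13 over all introns.

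The intron with the lower SE was exo2 intron 2. It had 11 and 19 junction reads in dbr1Δ, against 31 and 66 in wild type, and 9 and 10 boundary reads in dbr1Δ, against 5 and 2 in wild type. The SE was 0.26 and 0.86 in dbr1Δ, against 2.42 and 4.48 in wild type, so the dbr1Δ cultures lay lower although the wild-type cultures differed widely. The difference of the means was -2.89 (adjusted p = 6.62e-05 from the exact Cochran-Mantel-Haenszel test). The interaction from edgeR was -3.05 ± 0.92 (adjusted p = 0.0135), a call that 11.3% of all introns shared. In both dbr1Δ libraries junction reads still outnumbered boundary reads. The boundary reads per intron are few, and the call of the interaction was lost when dbr1Δ replicate 1, dbr1Δ replicate 2 or wild-type replicate 2 was left out.

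The first exo2 intron, on the other side of a 68-base coding exon, had SE values of 0 and 0.81 in dbr1Δ, against 2.17 and 1.12 in wild type, and a difference of -1.24 (adjusted p = 0.574 from the exact Cochran-Mantel-Haenszel test). The difference was -1.66 for the rrp6 intron and -1.91 for the dis3 intron, whose SE was 2.20 and 2.25 in dbr1Δ, against 3.74 and 4.52 in wild type. Both strains were apart in these introns without passing the test (adjusted p = 0.48 and 0.125 from the exact Cochran-Mantel-Haenszel test).

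In rrp41 both introns had almost no boundary reads. Intron 2 had 54 and 21 junction reads in dbr1Δ, against 117 and 159 in wild type, and 1 and 1 boundary reads in dbr1Δ, against 0 and 0 in wild type. The SE difference of -2.98 (adjusted p = 0.135 from the exact Cochran-Mantel-Haenszel test) rests mostly on the number of junction reads, since the pseudocount of 1 sets the lower part of the ratio. Intron 1 had 10 and 4 junction reads in dbr1Δ, against 13 and 21 in wild type, with 0 boundary reads in all 4 libraries. The coding exon between these introns has 40 bases.

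The introns of red1 did not differ in SE between the strains beyond their replicates. Intron 3 had more boundary reads than junction reads in every library, with 7 and 6 boundary reads in dbr1Δ, against 15 and 11 in wild type, and 4 and 2 junction reads in dbr1Δ, against 1 and 8 in wild type. Its SE was -0.68 and -1.22 in dbr1Δ, against -3.0 and -0.42 in wild type, a difference of 0.76 (adjusted p = 0.808 from the exact Cochran-Mantel-Haenszel test), and the wild-type cultures lay on either side of the dbr1Δ cultures. An SE below 0 in all 4 libraries was found in 81 of the 4096 introns, or 1.98%. This is the intron with the rare opening GTTATG. For intron 2, which held the most inside reads, the SE was 0.59 and 0.59 in dbr1Δ, against 0 and 2.70 in wild type. Its boundary reads were 5 and 3 in dbr1Δ, against 3 and 1 in wild type, few beside the 4737 and 3341 reads inside the intron in dbr1Δ. For intron 1 the SE was 1.36 and 1.19 in dbr1Δ, against 2.0 and 0.53 in wild type, and the strains overlapped. The adjusted p was 0.767 for intron 2 and 1 for intron 1 from the exact Cochran-Mantel-Haenszel test.

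**Figure D5:**
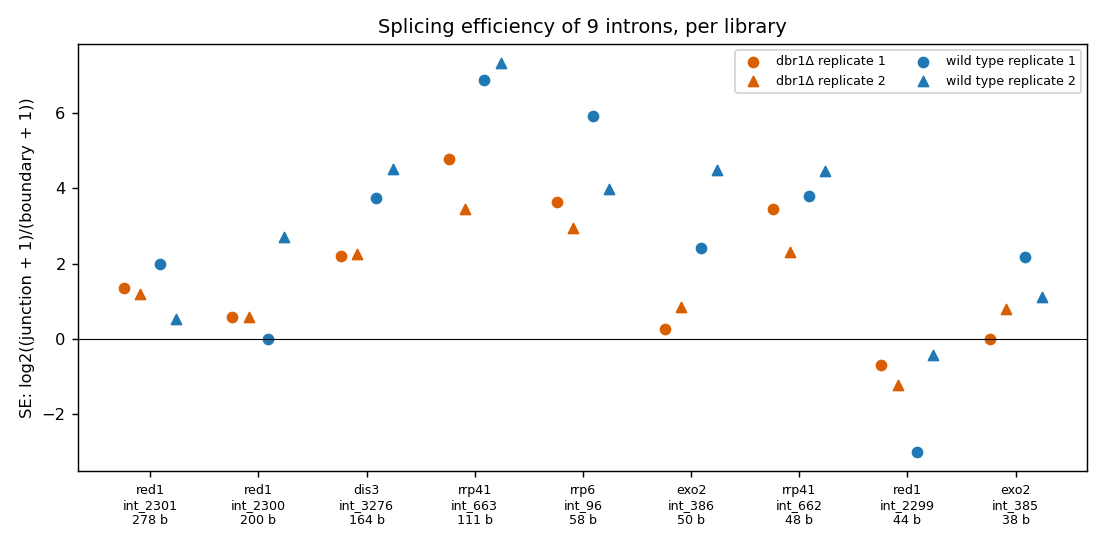
Splicing efficiency, log2 of junction reads plus 1 over boundary reads plus 1, of 9 introns in each library, ordered from the longest to the shortest, dbr1Δ in orange left of wild type in blue. For exo2 int_386 the dbr1Δ cultures lie at 0.26 and 0.86 and the wild-type cultures at 2.42 and 4.48, whereas in each of the 3 red1 introns both dbr1Δ cultures lie between the wild-type cultures.

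Other genes of RNA decay were compared in the same fit, from a list of 56 genes by symbol. By edgeR at the same threshold, 38 of the 56 were lower and 2 higher in dbr1Δ, with a median log2 fold change of -0.36. The scaling from transcripts gave 25 lower and 7 higher genes and a median of -0.19, where 27.5% of all transcripts were lower and 26.8% higher. None of the 56 passed the 2-fold cutoff with edgeR, and 1 did with DESeq2. That gene was not1, the scaffold of the Ccr4-Not deadenylase, at 281 and 239 CPM in dbr1Δ, against 504 and 524 CPM in wild type, with a log2 fold change of -0.98 ± 0.09 (adjusted p = 4.76e-05 by edgeR). The 2 higher genes were ski7, whose product couples the Ski complex to the cytoplasmic exosome, and cid13, a cytoplasmic poly(A) polymerase gene. The gene ski7 stood at 48.2 and 44.2 CPM in dbr1Δ, against 37.5 and 33.0 CPM in wild type, and cid13 stood at 69.3 and 60.7 CPM in dbr1Δ, against 50.4 and 47.3 CPM in wild type. These 3 genes were named after their values were seen.

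By group, all 10 listed exosome core subunits and cofactors were lower, beside dis3, rrp6 and rrp41, and 7 of the 10 stayed lower with the scaling from transcripts. Their log2 fold changes ran from -0.76 to -0.30, so rrp41 at -1.24 lay below each of them. Of 11 listed genes of the Mtl1-Red1 complex and of meiotic mRNA removal, 9 were lower, and 3 with the scaling from transcripts. The TRAMP zinc-finger gene air1 was lower under both scalings, at -0.63 and -0.46. Of 8 genes of decapping and 5′-3′ decay, 6 were lower under both scalings. Of 9 deadenylation genes 5 were lower under both scalings, while 2 were higher with the scaling from transcripts. Of 5 other nucleotidyltransferase genes of the Cid14 kind, 0 were lower and 1 was higher, and 3 were higher with the scaling from transcripts. The shares of these small groups stand beside 42.6% lower and 17.8% higher among all transcripts, or 27.5% and 26.8% with the scaling from transcripts. Among nuclear protein-coding transcripts alone, 2498 of 4963 were lower and 641 higher under the joint scaling, and 1609 and 1105 under the other. No group was tested as a set.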

How the data were processed

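The deposited table holds read counts for transcripts and introns from 4 libraries. The authors aligned 49-base reads with Bowtie to the EF1 genome and its exon junctions and removed reads that matched multiple loci. The counts are the authors' raw reads per locus, and reads across the 5′ exon-intron boundary are counted apart. The authors' log2 values are log2 expression per length and library size, not used for tests, and log2 splicing efficiency, from which junction reads were recovered. The table's columns of the authors' own fold changes and p-values were not used. A joint fit of both kinds of locus used edgeR 4.0.16 in R 4.3.3 (quasi-likelihood F test, TMM factors over loci that had 10 or more counts in 2 or more libraries, Benjamini-Hochberg adjustment over 9518 loci). Standard errors were derived from the F statistic. In simulated data with 200 changed loci among 9518, this test recovered 92% of 4-fold and 78% of 2-fold changes. Every simulated locus had the same dispersion, and equal numbers of loci went up and down. The simulation therefore cannot show how the test does where many introns rise and shift the scaling. With 2 cultures a strain, an exact permutation test cannot give a p under 0.333, so p-values rest on the spread pooled over loci. Replicates differed beyond sampling noise (chi-square per degree of freedom 30.9 in dbr1Δ and 15.3 in wild type). No pairing of the cultures by replicate number was seen (correlation of deviations -0.0381), which cannot show how the cultures were handled. The Cochran-Mantel-Haenszel test of splicing efficiency nevertheless took replicate number as its strata.

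Named are the 10 genes, their introns, overlapping antisense transcripts, dbr1, and other decay genes past both cutoffs, of which there were none. Those decay genes and coding neighbours that are named were picked with their values in view. The genes, lists and tests were chosen with earlier results of these data known. Alternatives were DESeq2 1.42.0, 4 other scalings, separate fits of transcripts and introns, other count filters, no fold cutoff, a replicate block, and leaving out each library. The chi-square form of the Cochran-Mantel-Haenszel test was added after seeing the data. Gene symbols and sequences are from RefSeq ASM294v3, matched by identifier for 6844 of 7022 transcripts. Python 3.11.15 with pandas 2.3.3 and matplotlib 3.10.9 made the tables and plots.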

Additional observations from a re-analysis of the deposited data

How the results depend on the processing

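The 3 called introns kept their direction and their call in every alternative, including each library left out. In separate fits, where introns are scaled among themselves and their median log2 fold change is -0.147 in place of 1.24, they fell to 3.69 (int_2300), 3.25 (int_2301) and 3.14 (int_3276), and int_663 at -1.75 and int_2299 at -1.58 were called lower, as were 31.3% of all tested introns. The number of transcripts lower among the 10 genes was 1 at the 2-fold cutoff under all scalings and 9 without the fold cutoff. Without that cutoff it was 7 with the library total alone, 5 with scaling from nuclear protein-coding transcripts, with scaling from transcripts and in separate fits, and 5 to 7 with 1 library left out. Among the 56 other genes, the number lower past 2-fold was 0, against 1 with DESeq2, 0 to 1 with 1 library left out and 38 without the fold cutoff. Without it, 19 were lower and 8 higher with scaling from nuclear protein-coding transcripts, 25 lower and 7 higher with scaling from transcripts and in separate fits, and 32 to 34 lower and 1 to 3 higher with 1 library left out. The number of introns with lower SE was 1, but 0 among introns with at least 50 reads in each strain, a minimum that exo2 intron 2 did not reach, and 0 to 1 in edgeR's interaction with 1 library left out. Some directions turned. In nuclear protein-coding scaling mtl1 was at 0.00044, cid14 at 0.0816 and int_2299 at 0.0458. With scaling from transcripts and in separate fits cid14 was at 0.0234. In separate fits int_386 was at -0.39, against 0.99. Without dbr1Δ replicate 1 int_2299 was at 0.0892, and without wild-type replicate 1 at 0.0605. The edgeR interaction of int_2299 was -0.0081 without dbr1Δ replicate 1 and -0.65 without wild-type replicate 1, and without wild-type replicate 2 that of int_2300 was 0.69 and that of int_2301 -0.99. The SE difference of int_2301 was -0.44 after thinning. The causes were not tested. With a replicate block, 9 of the 10 genes and 36 of the 56 were lower, and without the block in the SE test 1 intron was called, so the block changed no call of the 10 genes or their introns. Depth limits the short introns and the boundary reads, and intervals and floors cover counting error only.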
